A study of Mus musculus with 119 samples.

Results

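The nuclear-encoded genes of oxidative phosphorylation were followed across a series of RNA-seq libraries from mouse bone marrow-derived macrophages (BMDMs). They were taken by symbol, as every gene whose name begins with Nduf followed by a, b, c, s or v, with Uqcr, with Cox4 to Cox8 or with Atp5, together with Sdha, Sdhb, Sdhc and Sdhd, and with pseudogene symbols left out. This gave 89 of the 18098 genes in the deposited table. Of these, 86 were abundant enough to be tested, and Cox4i2, Cox6b2 and Ndufa4l2 were not. Cox4i2 lay between 0.20 and 0.53 on the log2 scale in all libraries, Cox6b2 between 2.22 and 3.19, and Ndufa4l2 between -2.05 and -2.01. The 86 tested genes were 44 named for complex I, 4 for complex II, 8 for complex III, 13 for complex IV and 17 for complex V. The complex I names included 7 assembly factors, leaving 37 subunits. Genes were counted by name, so the 37 include Ndufa4, whose product is known as a subunit of complex IV. Atp5s and Atp5sl carry an ATP synthase name without being structural subunits, leaving 15 subunits of complex V.

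Oxidative phosphorylation is carried out in the inner mitochondrial membrane by NADH dehydrogenase (complex I), succinate dehydrogenase (complex II), the cytochrome bc1 complex (complex III) and cytochrome c oxidase (complex IV), which pass electrons to oxygen, and by the ATP synthase (complex V), which uses the resulting proton gradient. Most subunits are encoded in the nucleus and the rest in mitochondrial DNA, so the complexes are built from the products of both genomes with the help of dedicated assembly factors. Macrophages activated through Toll-like receptor 4 are known to shift over hours from respiration towards glycolysis. The mitochondrially encoded subunits were not analysed here.

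BMDMs came from C57BL/6(NIMR) mice, whose age was not given, and were grown from the marrow of both femurs for 7 days in L-cell conditioned medium before overnight culture in low serum. LPS (lipopolysaccharide, a Toll-like receptor 4 agonist) was used at 100 ng/ml. Wild-type (WT) cells were sampled unstimulated and after 0.5 and 1 h of LPS with 6 libraries each, and after 2 h with 4 libraries. Map3k8 D270A/D270A cells, in which the kinase TPL-2 is catalytically inactive, had 6 libraries at each of these 4 times. Elk1-/-Elk4-/- cells, which lack a pair of ETS-family ternary complex factors downstream of ERK, had 4 libraries at each time. Nfkb1 SSAA/SSAA cells, in which p105 resists signal-induced proteolysis and TPL-2 is not released, had 6 libraries at 0, 0.5 and 1 h. Otherwise unmutated cells were given PD0325901 (0.1 µM, an inhibitor of the ERK kinases MKK1/2) for 10, 40 or 70 min without LPS in 3 libraries each, or for 10 min before 0.5 or 1 h of LPS in 6 libraries each, and 3 libraries had 10 min of the solvent DMSO. RSKi47 (2 µM, an inhibitor of the ERK-activated kinases RSK) was given 10 min before LPS, with 4, 3, 4 and 4 libraries at 0, 0.5, 1 and 2 h. The labels place WT and Map3k8 D270A/D270A cells in the same experiment and each of the other mutants and inhibitors in another. Differences of those groups from WT and differences between experiments therefore cannot be told apart.

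The 8 macrophage marker genes averaged 14.16 to 14.68 on the log2 scale over all libraries. Of 10 neutrophil and myeloid precursor markers, Elane, Mpo, Prtn3 and Ctsg were below the filter in every library. The other 6 (S100a8, S100a9, Ngp, Camp, Ltf and Lcn2) were tested. The mean of this list lay at 2.12 to 5.05 over all libraries, highest in an Elk1-/-Elk4-/- library at 2 h. Of 10 lymphocyte markers 8 were below the filter everywhere. Elk1, deleted in Elk1-/-Elk4-/- cells, lay at 9.07 to 9.22 in unstimulated WT libraries and at 6.22 to 6.59 in the mutant ones, and Elk4 differed by -2.01. Over all tested genes the median log2 fold change lay between -0.02 and 0.03 in every comparison given here. 1 library, Nfkb1 SSAA/SSAA replicate 2 at 1 h, stood apart: its mean over the 86 members was 10.37, where the other 5 libraries of its group lay at 9.93 to 10.00. In bulk RNA a change in the number of cells of a type and a change in RNA per cell cannot be told apart. The study's methods call the replicate libraries biological, but neither they nor the labels say whether these came from separate animals or cultures, so p-values measure only the spread between these libraries.

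Promoters of members with opposite behaviour in Elk1-/-Elk4-/- cells are shown first, because ELK1 and ELK4 bind ETS motifs and the genes of this family are known targets of ETS, NRF1 and YY1 factors. The sequences are RefSeq GRCm38.p6, printed 5′ to 3′ on the gene's strand from 170 bases before to 30 bases after the annotated start. Capitals mark the letters CCGGAAG (ETS), GCGC, any 2 bases and GCGC again (NRF1) or AAGATGGC (YY1) on either strand. Cox8a, a small membrane subunit of complex IV, and Uqcr11, a small subunit of complex III, had the strongest decreases in unstimulated Elk1-/-Elk4-/- cells. They lie on the minus strand at chr19:7217587-7217786 and chr10:80406792-80406991. Sdha, the flavoprotein of succinate dehydrogenase, and Cox7a2l, which helps join complexes III and IV, were higher there. Their windows are chr13:74350211-74350410 and chr17:83514304-83514503, also on the minus strand.
Cox8a: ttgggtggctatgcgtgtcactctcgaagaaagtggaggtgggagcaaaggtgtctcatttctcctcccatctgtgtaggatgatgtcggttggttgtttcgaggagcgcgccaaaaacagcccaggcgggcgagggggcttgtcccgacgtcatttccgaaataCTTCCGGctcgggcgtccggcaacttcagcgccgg
Uqcr11: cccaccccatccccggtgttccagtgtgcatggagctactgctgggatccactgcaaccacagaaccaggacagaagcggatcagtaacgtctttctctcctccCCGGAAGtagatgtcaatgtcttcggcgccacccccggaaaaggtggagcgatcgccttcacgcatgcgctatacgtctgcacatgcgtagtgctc
Sdha: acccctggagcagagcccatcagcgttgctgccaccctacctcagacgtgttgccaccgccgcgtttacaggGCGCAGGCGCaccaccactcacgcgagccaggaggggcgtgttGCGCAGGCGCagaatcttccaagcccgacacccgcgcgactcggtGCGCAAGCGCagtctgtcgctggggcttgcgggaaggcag
Cox7a2l: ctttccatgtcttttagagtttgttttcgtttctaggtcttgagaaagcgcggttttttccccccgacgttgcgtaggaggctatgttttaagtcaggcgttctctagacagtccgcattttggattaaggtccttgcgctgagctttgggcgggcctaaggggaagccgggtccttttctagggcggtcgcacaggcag

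The Cox8a window held an ETS match at -5 from the start and the Uqcr11 window held one at -66. The Sdha window held NRF1 matches at -98, -55 and -10, and the Cox7a2l window held none of the 3 motifs. Over the window from 250 bases before to 50 after the start, 74 of the 89 members had an entry. The ETS letters were in 17 of them (23.0%), beside 21.0% of the 9583 tested genes with an entry. Among members that were lower in unstimulated Elk1-/-Elk4-/- cells, 15 of 57 (26.3%) held an ETS match, and among tested members that were not lower 2 of 16 (12.5%) did. Most lower members thus held none, Ndufs6 and Atp5j2 among them, and neither did Atp5s, which was higher. The printed windows were picked by the members' differences and do not represent the set. NRF1 letters were in 21 members (28.4%, against 15.4% of tested genes) and YY1 letters in 11 (14.9%, against 5.61%). ETS and YY1 matches did not overlap in any member. GGGCGG, the letters of the SP1 motif, were in 44.6% of members and 68.5% of tested genes, and CCAAT (NFY) in 44.6% and 43.2%. A match is a description of the letters and not a measured binding site.

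In unstimulated WT cells Atp5b and Cox4i1 were the most abundant members per kilobase of transcript. On the scale of log2 normalised value per kilobase of the median annotated protein-coding transcript, Atp5b, the catalytic beta subunit of the ATP synthase, stood highest at 12.77. Cox4i1, a nuclear subunit of cytochrome c oxidase, followed at 12.75, then Cox6b1 at 12.41, Uqcrc1, a core protein of complex III, at 12.38 and Atp5e at 12.33. With the longest annotated transcript in place of the median, chosen after seeing the data, Atp5b and Cox4i1 kept ranks 1 and 2 and Atp5e was at rank 3, but Cox6b1 was at rank 7 and Uqcrc1 at rank 35 (10.75), since its median of 533 bases is set by short annotated fragments beside a transcript of 1653 bases. The lowest by the median length were Cox6a2 at 5.45, Ndufaf6 at 6.03, Cox7a1 at 6.34, Ndufaf5 at 6.71 and Atp5s at 6.73. Cox6a2 and Cox7a1 are the heart and skeletal muscle forms of complex IV subunits, and Ndufaf5 and Ndufaf6 are complex I assembly factors. Over all groups the members kept a narrow range: the standard deviation of the group means was above 0.2 for few of them, led by Ndufs5 (0.98), Cox6a2 (0.34), Atp5j2 (0.28), Cox7a1 (0.24), Cox8a (0.22) and Ndufa2 (0.21).

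**Figure D1:**
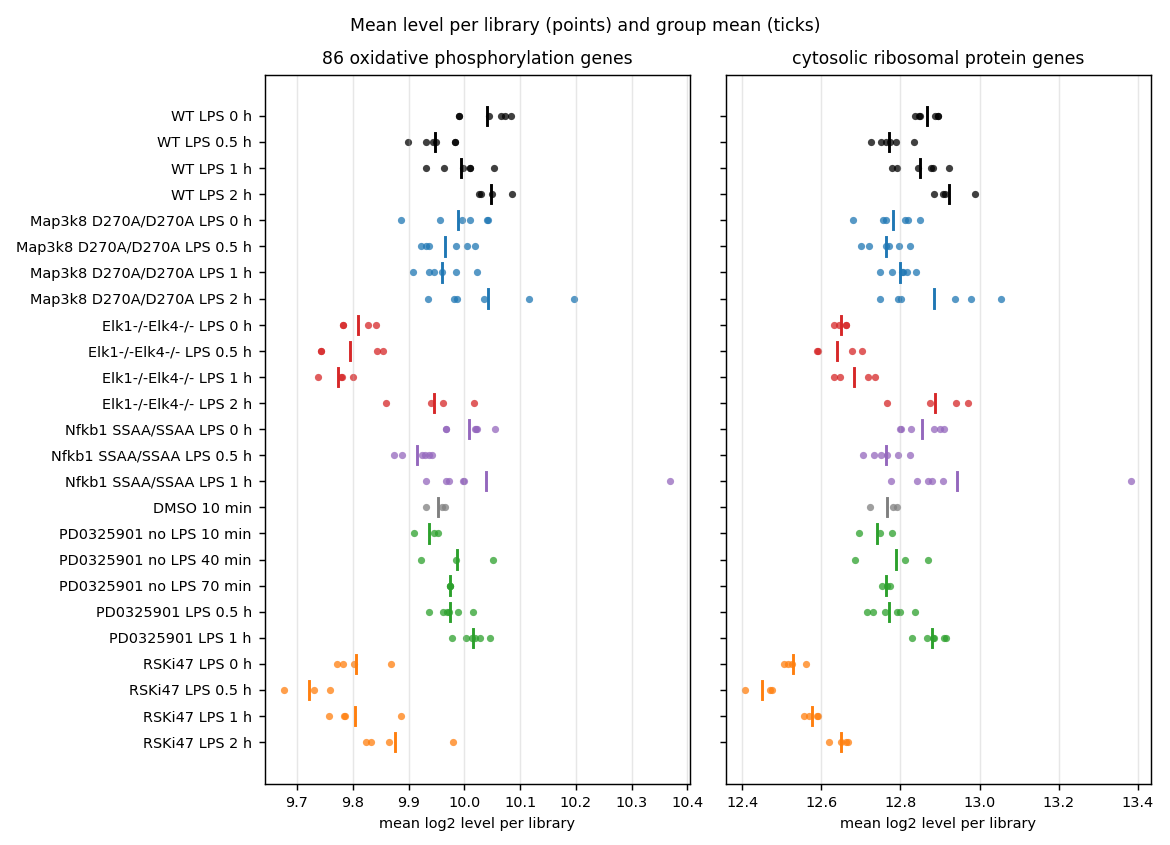
Mean log2 normalised value over the 86 tested members (left) and over 79 cytosolic ribosomal protein genes (right), by genotype, inhibitor and time, with points for libraries and ticks for group means. Unstimulated WT libraries lay at 9.99 to 10.08 for the members, Elk1-/-Elk4-/- libraries at 9.78 to 9.84 and RSKi47 libraries at 9.77 to 9.87.

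Within the first hour of LPS the called changes in WT cells were small and nearly all downwards. At 0.5 h, 11 of 86 members fell and 0 rose, against 11.6% of all tested genes called, 7.82% higher and 3.81% lower. The median log2 fold change of the members was -0.10, with 85 of 86 values below 0 and 59 at an unadjusted p under 0.05. Ndufb11, an accessory subunit of the complex I membrane arm, lay at 10.26, 10.30 and 10.39 (lowest, median, highest) before LPS and at 10.15, 10.19 and 10.25 after 0.5 h. The ranges did not overlap, and the change was -0.13 ± 0.036 (SE, n = 6 and 6, adjusted p = 0.0112). Cox5b (-0.13 ± 0.044, adjusted p = 0.0475) and Ndufb9 (-0.13 ± 0.041, adjusted p = 0.032) fell likewise. With the replicate number as a block, which treats same-numbered WT libraries as paired, 38 members were called, including all 11, against 21.9% of tested genes. Leaving out any of WT replicates 4 to 9 left 1 to 5 members called, and the calls of Cox5b and Ndufb9 were lost each time. Ndufb11 lost its call without replicate 5 (adjusted p = 0.067). Within replicates 4 to 6 alone 36 members fell at 0.5 h, and within replicates 7 to 9 alone 2 did (4.51% and 2.97% of tested genes were lower in these fits), a division added after seeing the data, in which the spread was pooled with 3 replicates of the Map3k8 mutant. Cytosolic ribosomal protein genes moved with the members at 0.5 h, from library means of 12.84 to 12.89 to 12.73 to 12.83 with 9 of 79 called lower and 0 higher, as did mitochondrial ribosomal protein genes, from 8.91 to 8.96 to 8.82 to 8.89 with 18 of 77 lower. The library rho, the Spearman correlation over genes between a library's deviations from the mean of all libraries and transcript length, went from a group median of -0.14 to 0.015, and the part of these measures was not tested.

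At 1 h of LPS, 1 member rose and 10 fell (of tested genes 46.8% were called, 23.8% higher and 23.0% lower), with a median of -0.04. The falls were led by assembly factors of complex I: 3 of 7 were lower, with 5 of 37 complex I subunits 1 of 4 complex II subunits and Atp5sl. Ndufaf6 fell by 0.27 ± 0.059 (adjusted p = 0.0001), Ndufaf1 by 0.26 ± 0.052 (adjusted p = 2.4e-05) and Ndufaf4 by 0.22 ± 0.058 (adjusted p = 0.00095). Atp5a1, the alpha subunit of the ATP synthase, was the only member called higher, at +0.08 (adjusted p = 0.0079). The count was 7 without WT replicate 4 and 7 without replicate 5, and within replicates 4 to 6 alone 2 rose and 28 fell, against 0 and 2 within replicates 7 to 9 (26.2% of tested genes higher and 26.0% lower in the first fit, 18% and 16.5% in the second). Ndufb11 was also lower (-0.11, adjusted p = 0.0109), a call lost without replicate 4 (adjusted p = 0.14).

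By 2 h of LPS the WT members had parted. 17 of 86 were higher and 9 lower (of tested genes 71.5% were called, 34.7% higher and 36.8% lower), with a median of +0.02. The higher members were 5 of 13 subunits of complex IV, 5 of 15 of complex V, 3 of 8 of complex III, 3 of 37 of complex I and the assembly factor Ndufaf3. The lower members were 3 other assembly factors, 3 complex I subunits, Sdhb, Atp5s and Atp5sl. The balance differed among replicates: the mean over members went from 10.04 to 10.05 in replicate 4, from 10.08 to 10.03 in replicate 5 and from 10.07 to 10.03 in replicate 6, and from 9.99 to 10.09 in replicate 7. Within replicates 4 to 6 alone 16 members were higher and 22 lower (36.2% and 39.0% of tested genes), with a median of -0.02, where Cox5a (+0.33), Atp5a1 (+0.31) and Atp5sl (-0.72) were still called. The dendritic cell list moved at the same time, from 3.50 to 3.79 before LPS to 4.23 to 4.35 at 2 h, with 2 of 3 tested markers higher, and the macrophage list from 14.28 to 14.37 to 14.43 to 14.61, with 4 of 8 higher and 2 lower. The neutrophil and precursor list lay at 2.23 to 2.62 before LPS and 2.57 to 3.10 at 2 h, and rose in each of replicates 4 to 7. Their part was not tested.

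Cox5a, a nuclear subunit of cytochrome c oxidase, lay at 10.85, 10.93 and 10.97 (lowest, median, highest of 6) before LPS and at 11.26, 11.27, 11.28 and 11.26 after 2 h. All 4 stimulated libraries were above all 6 unstimulated ones, and the rise was 0.35 ± 0.042 (adjusted p = 1.3e-10). Atp5a1 went from 13.38, 13.42 and 13.49 to 13.72, 13.68, 13.77 and 13.76 (+0.30 ± 0.029, adjusted p = 1.6e-13), and Atp5b from 13.64, 13.70 and 13.83 to 13.98, 13.95, 14.01 and 14.01 (+0.27 ± 0.038, adjusted p = 8.7e-09). Neither gene's groups overlapped. Uqcrfs1, the Rieske iron-sulfur protein of complex III, rose from 10.41, 10.44 and 10.51 to 10.63, 10.65, 10.71 and 10.68 (+0.21 ± 0.036, adjusted p = 7.5e-07). Uqcrc1 (+0.14), Ndufaf3 (+0.12) and Cox4i1 (+0.10) were also called. Cox4i1 lost its call without WT replicate 7 (adjusted p = 0.093). Ndufs1 and Ndufv1, core subunits of the NADH-oxidising arm of complex I, were at +0.02 and +0.05 and Sdha at +0.05, none of them called, although Ndufs1 (+0.05, adjusted p = 0.038) and Sdha (+0.05, adjusted p = 0.0061) were called with the replicate block.

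In the other direction, Atp5sl went from 8.16, 8.38 and 8.53 before LPS to 7.85, 7.77, 7.70 and 7.64 after 2 h. Atp5s went from 6.13, 6.29 and 6.36 to 5.78, 5.55, 5.71 and 5.97. Both fell without overlap, by 0.61 ± 0.078 (adjusted p = 6e-10) and 0.50 ± 0.069 (adjusted p = 5.5e-09). Ndufaf7, a methyltransferase that acts in complex I assembly, fell from 7.94, 8.03 and 8.11 to 7.65, 7.71, 7.65 and 7.81 (-0.32 ± 0.054, adjusted p = 4.7e-07). Ndufaf1 and Ndufaf6 were each 0.20 below the unstimulated level. Sdhb, the iron-sulfur subunit of complex II, was called at -0.09 (adjusted p = 0.0394) and lost the call without WT replicate 4, 5, 6 or 9.

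The direction of the 2-h rises depended on the scale. After quantile normalization, 2 members were higher and 56 lower at 2 h in WT cells, where that scaling called 27.4% of tested genes higher and 46.6% lower, and Atp5a1 (-0.08), Atp5b (-0.13), Uqcrc1 (-0.19) and Cox4i1 (-0.30) turned below 0. Cox5a and Uqcrfs1 stayed above 0 but were not called (adjusted p = 0.18 and 0.91). At 1 h the same scaling called 1 member higher and 58 lower (18.9% and 36.4% of tested genes), and at 0.5 h 0 higher and 46 lower (7.14% and 10.4%).

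**Figure D2:**
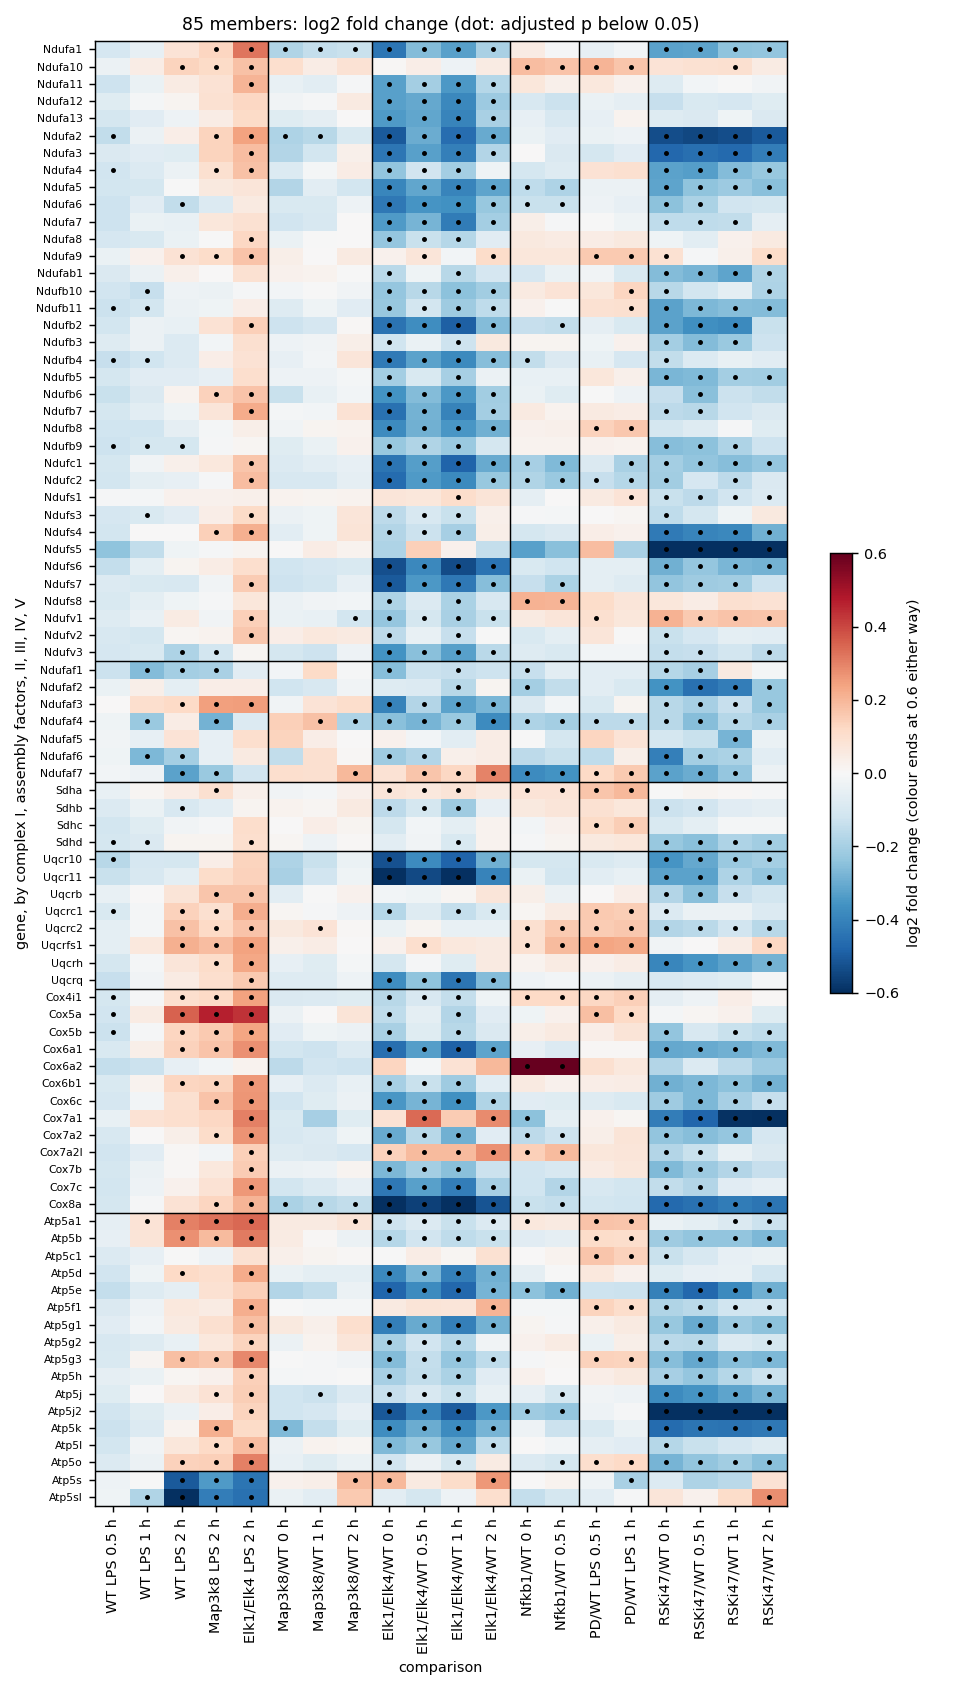
Log2 fold change of 85 of the 86 tested members (rows, grouped by complex) in 20 comparisons (columns), with dots at an adjusted p below 0.05 and colours that end at 0.6 either way. Blue and red give lower and higher levels: the columns for Elk1-/-Elk4-/- and RSKi47 against WT carry 41 to 65 lower calls each, and those for Map3k8 D270A/D270A against WT, drawn at 0, 1 and 2 h, carry 4 to 7 calls. The member that is not drawn is left out of these counts.

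In Map3k8 D270A/D270A cells the LPS response of the members was likewise small before 2 h. At 0.5 h 0 members were called by limma (5.08% of tested genes were, 3.91% higher and 1.17% lower), and 2 reached an unadjusted p under 0.05. At 1 h 3 members rose and 7 fell (41.9% of tested genes called, 21.8% higher and 20.1% lower), among them Ndufaf3 at +0.20, Sdhd, a membrane anchor of complex II, at -0.12, and Ndufv3 at -0.11. Only 5 to 6 were called without replicate 1 or 2, and Ndufv3 lost its call without replicate 1, 2, 3, 5 or 6. At 2 h 30 rose and 6 fell (69.5% of tested genes called, 34.9% higher and 34.6% lower), with a median of +0.07: 8 of 13 complex IV, 7 of 15 complex V, 5 of 8 complex III and 8 of 37 complex I subunits were higher. The replicates divided here. The mean over members went from 10.00, 10.04 and 10.04 to 9.98, 9.99 and 9.93 in replicates 1 to 3, and from 10.01, 9.96 and 9.89 to 10.20, 10.12 and 10.04 in replicates 4 to 6. Within replicates 1 to 3 alone 9 members rose and 32 fell (median -0.07, with 36.2% of tested genes higher and 37.8% lower), and within replicates 4 to 6 alone 54 rose and 5 fell (median +0.18, with 31.6% and 30.7%). At 1 h the counts were 1 and 37 in the first set (25.6% and 23.6% of tested genes) and 2 and 2 in the second (16.6% and 15.0%). Cytosolic ribosomal protein genes averaged 12.81, 12.85 and 12.82 before and 12.80, 12.79 and 12.75 after 2 h in replicates 1 to 3, and 12.76, 12.76 and 12.68 before and 13.06, 12.98 and 12.94 after in replicates 4 to 6. The library rho with transcript length divided likewise, from -0.15, -0.23 and -0.26 to 0.0044, -0.0015 and 0.0087 in replicates 1 to 3, and from 0.014, -0.0028 and 0.088 to -0.10, -0.11 and -0.039 in replicates 4 to 6. Macrophage markers lay at 14.28 to 14.30 before LPS and 14.50 to 14.60 after 2 h in replicates 1 to 3, and at 14.27 to 14.31 and 14.32 to 14.35 in replicates 4 to 6. Over all replicates the dendritic cell list lay at 3.63 to 3.83 before and 4.04 to 4.37 after, and the neutrophil and precursor list at 2.12 to 2.51 and 2.49 to 2.83. The part of these measures was not tested. The members named next were called with the same sign in both sets. Cox5a went from 10.74, 10.88 and 10.98 to 11.28, 11.31 and 11.48, a rise of 0.46 ± 0.038, and Atp5a1 from 13.43, 13.47 and 13.56 to 13.76, 13.79 and 13.91, a rise of 0.33 ± 0.026. Neither pair of ranges overlapped. Ndufaf3 rose by 0.25 ± 0.044, and Atp5sl fell by 0.42 ± 0.069. With quantile normalization 1 was higher and 48 lower at 1 h (16.9% and 33.1% of tested genes) and 3 and 44 at 2 h (26.2% and 46.8%), where Atp5a1 stood at -0.02.

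**Figure D3:**
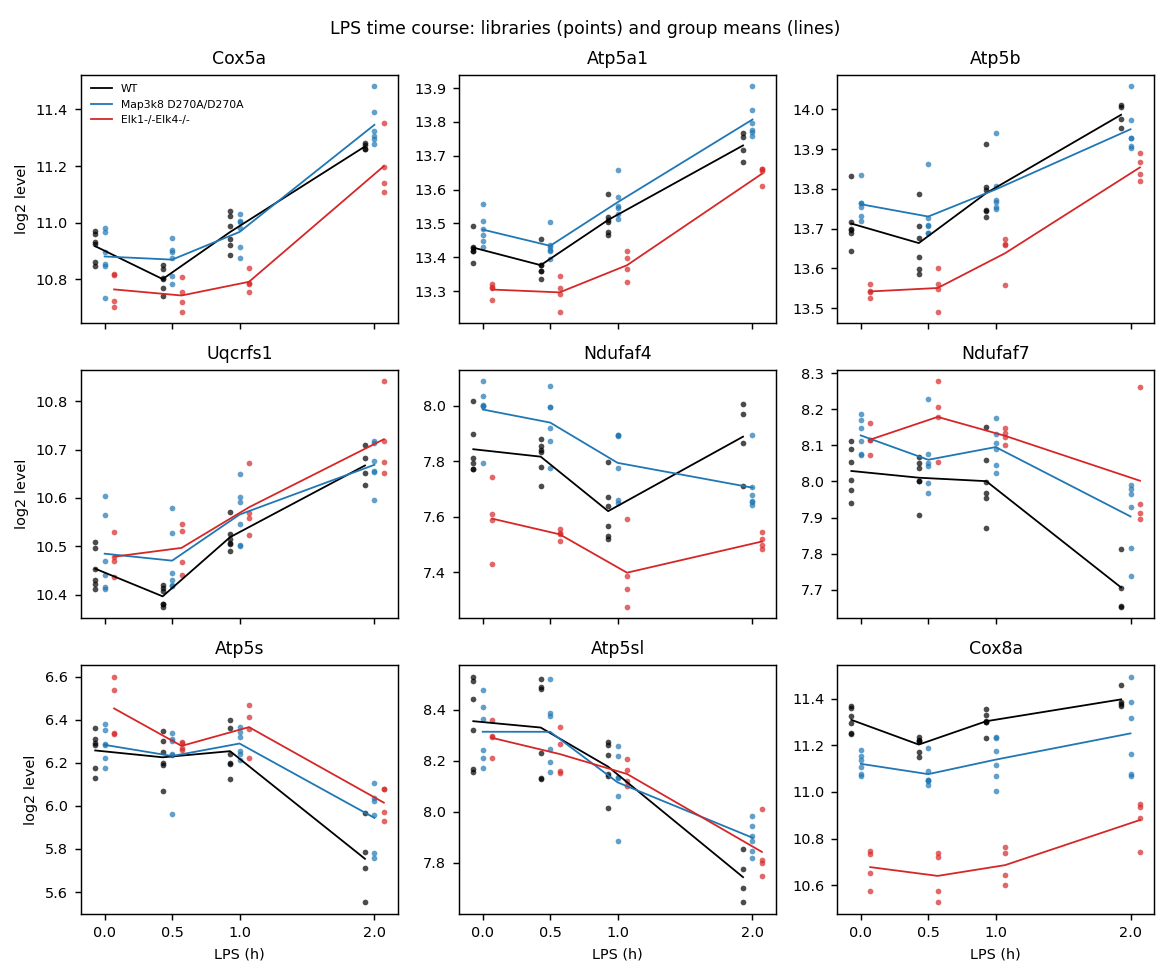
Log2 normalised value of 9 members over 0, 0.5, 1 and 2 h of LPS in cells of WT, Elk1-/-Elk4-/- and Map3k8 D270A/D270A genotype, where points are libraries and lines join group means. Cox5a, Atp5a1 and Atp5b end above their unstimulated levels in each genotype, Atp5s and Atp5sl end below, and Cox8a in Elk1-/-Elk4-/- cells lies under WT at every time.

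Set against WT, 2 to 7 members were called in Map3k8 D270A/D270A cells at each time. Unstimulated, 0 were higher and 4 lower, where 1.44% of tested genes were called (0.606% higher, 0.833% lower). At 0.5 h 2 were higher and 0 lower (1.37% of tested genes, 0.480% higher and 0.892% lower). At 1 h 2 were higher and 4 lower (9.79%, with 5.14% and 4.64%) and at 2 h 3 were higher and 4 lower (27.7%, with 14.6% and 13.1%). Cox8a was lower by 0.19 ± 0.048 (adjusted p = 0.0289) and Ndufa2, an accessory subunit of complex I, by 0.19 ± 0.051 (adjusted p = 0.0428) before LPS. At 2 h Ndufaf7 was higher by 0.20 ± 0.054 (adjusted p = 0.00403) and Ndufv1 lower by 0.11 (adjusted p = 0.0142). The calls at 0.5 h, Ndufab1, the mitochondrial acyl carrier protein (+0.16, adjusted p = 0.0225), and Ndufs5 (+0.39 ± 0.102, adjusted p = 0.0346), had overlapping groups. Ndufs5 shares sequence with the pseudogene BC002163 (described with RSKi47 below), which was lower by 1.16 in the mutant at 0.5 h, and the log2 of the linear sum of the pair differed by -0.05.

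These counts rested on few libraries. At 0 h they were 0 without WT replicate 4, 5 or 6 or mutant replicate 1, 5 or 6, and 2 without mutant replicate 4. At 0.5 h they were 0 to 1 without WT replicate 5, 6, 7 or 8 or mutant replicate 1, 2, 5 or 6. At 1 h they were 1 to 3 without WT replicate 5 or 6 or mutant replicate 2 or 3, and at 2 h 2 to 4 without WT replicate 4, 5 or 7 or mutant replicate 2 or 3, and 11 without mutant replicate 4. Between WT replicates 4 to 6 and mutant replicates 1 to 3 alone, 10, 3, 19 and 32 members were called at the 4 times, of which 8, 1, 16 and 29 were lower. In these fits 4.87%, 3.14%, 19.0% and 43.0% of tested genes were called, and 2.25%, 1.41%, 9.79% and 19.1% were lower. Between WT replicates 7 to 9 and mutant replicates 4 to 6, 0 were called at 0, 0.5 and 1 h, and the calls of Cox8a, Ndufa2, Ndufab1 and Ndufs5 named above were not made. At 2 h this set held 1 WT library, so its count of 0 says little there. A fit on the groups compared alone called 0 members at 0.5 and 2 h. After quantile normalization 2 were higher and 0 lower at 1 h (5.41% and 3.57% of tested genes) and 3 and 2 at 2 h (13.5% and 11.5%).

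Whether TPL-2 activity altered the LPS response itself was asked with the interaction of genotype and time. At 1 h 0 members differed (2.02% of tested genes did, 0.724% upwards and 1.30% downwards, and 1 member had an unadjusted p under 0.05). At 2 h 1 member differed (15.5% of tested genes, 6.94% upwards and 8.60% downwards). This was Ndufaf4, an assembly factor of complex I, whose response was 0.33 ± 0.086 lower in mutant cells (adjusted p = 0.00503). In WT cells Ndufaf4 lay at 7.77, 7.80 and 8.02 before LPS and at 7.97, 7.71, 7.87 and 8.01 at 2 h. In mutant cells it lay at 7.796, 8.003 and 8.089 before and at 7.64, 7.67 and 7.89 at 2 h, a fall of 0.28 (adjusted p = 2.1e-05). The WT groups overlapped, and so did the mutant groups. The count became 2 without WT replicate 7 or mutant replicate 3.

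In Elk1-/-Elk4-/- cells most members were lower than in WT up to 1 h of LPS, and 41 of 86 were lower at 2 h. Unstimulated, 3 were higher and 65 lower, with 51.8% of all tested genes called, 27.2% higher and 24.6% lower. The median of the members was -0.23, and 58 lower members had groups that did not overlap, as did 17.8% of all tested genes in that direction. At 0.5 h 6 were higher and 55 lower (44.4% called, 22.4% higher and 22.0% lower), at 1 h 4 and 66 (53.4%, with 27.2% and 26.2%) and at 2 h 6 and 41 (50.8%, with 27.7% and 23.1%). The medians were -0.13, -0.20 and -0.10. None of the members reached 2-fold. Leaving out single replicates kept 66 to 69, 45 to 63, 66 to 69 and 38 to 48 members called at the 4 times.

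All 5 complexes were touched in unstimulated cells, unequally. Of 37 complex I subunits 33 were lower (median -0.33), including 6 of 7 core subunits (median -0.16), and 4 of the 7 assembly factors were lower. In complex V 13 of 15 subunits were lower: 4 of 5 of the F1 head, 3 of 4 of the stalk and stator, 3 of 3 of the c ring and 3 of 3 membrane accessory subunits, which had a median of -0.37. In complex IV 10 of 13 were lower and in complex III 4 of 8. In complex II Sdhb was lower (-0.16) and Sdha higher.

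Cox8a lay at 11.25, 11.31 and 11.37 (lowest, median, highest of 6) in WT and at 10.65, 10.75, 10.73 and 10.58 in Elk1-/-Elk4-/- cells. Uqcr11 lay at 9.84, 10.03 and 10.11 in WT and at 9.35, 9.50, 9.54 and 9.18 in the mutant. The mutant libraries of both genes, whose promoters are printed above, lay under all WT libraries, with differences of -0.63 ± 0.054 (adjusted p = 8.1e-14) and -0.60 ± 0.067 (adjusted p = 1.9e-10). Ndufs6, an accessory subunit of complex I, went from 9.01, 9.13 and 9.25 to 8.59, 8.69, 8.60 and 8.52 (-0.53 ± 0.069, adjusted p = 9.1e-09). Atp5j2, the f subunit of the ATP synthase membrane part, and Ndufa2 differed by -0.51 and -0.50. The catalytic and core subunits listed for every comparison had smaller differences: Ndufv1 by 0.23, Uqcrc1 and Atp5b by 0.17, Cox4i1 by 0.16, Cox5a by 0.15 and Atp5a1 by 0.12. Among assembly factors, Ndufaf3 (-0.40), Ndufaf1 (-0.26), Ndufaf4 (-0.25) and Ndufaf6 (-0.22) were called, and Ndufaf2 (-0.08), Ndufaf5 (+0.03) and Ndufaf7 (+0.09) were not. The muscle forms Cox6a2 (+0.13) and Cox7a1 (+0.09) were not called.

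The 3 members that were higher in unstimulated Elk1-/-Elk4-/- cells were Sdha, Cox7a2l and Atp5s. Sdha lay at 12.18, 12.21 and 12.24 in WT and at 12.27, 12.30, 12.32 and 12.25 in the mutant, without overlap (+0.07 ± 0.025, adjusted p = 0.0158), and lost its call without mutant replicate 3 (adjusted p = 0.069). Cox7a2l lay at 12.05, 12.23 and 12.29 in WT and 12.29, 12.39, 12.38 and 12.32 in the mutant, groups that overlapped at their edge (+0.14 ± 0.051, adjusted p = 0.0193). At 2 h its libraries lay at 12.21, 12.20, 12.23 and 12.21 in WT and 12.47, 12.38, 12.65 and 12.43 in the mutant, now without overlap (+0.27 ± 0.056, adjusted p = 4.73e-05). Ndufaf7 was also higher at 2 h (+0.30 ± 0.059). Cox8a at 2 h was still lower, at 10.95, 10.74, 10.94 and 10.89 against 11.38, 11.37, 11.46 and 11.37 (-0.52 ± 0.059), with Ndufs6 at -0.44 and Uqcr11 at -0.40.

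Several measures moved together with this difference. The 6 tested neutrophil and precursor markers were higher in the mutant, with a median of +3.37 unstimulated. The mean of that list lay at 4.33 to 4.76 in the mutant and 2.23 to 2.62 in WT, while its untested markers Elane, Mpo, Prtn3 and Ctsg stayed below the filter. The macrophage markers had 2 of 8 higher and 2 lower. The lymphocyte list, with 2 of 10 markers tested, averaged 1.68 to 1.90 in the mutant and 1.52 to 1.59 in WT, and the stromal and endothelial list, with 1 of 7 tested in this model and 2 in that of all libraries, 1.496 to 1.722 and 1.31 to 1.49. Cytosolic ribosomal protein genes, another family of short transcripts, were lower in 59 of 79 cases unstimulated (median -0.23) and in 46, 57 and 15 at 0.5, 1 and 2 h. Mitochondrial ribosomal protein genes were lower in 49, 37, 49 and 30 of 77. The part of these markers in the members' difference was not tested.

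Transcript length moved with it as well. The members' median transcript length was 707.5 bases against 2167 over tested genes, and 61 of 86 were under 1000 bases. Unstimulated, 52 of the 61 short members and 13 of the 25 long ones were lower in Elk1-/-Elk4-/- cells. Among other genes 39.3% of 2006 short and 21.1% of 9328 long ones were lower. The medians were -0.26 and -0.12 for short and long members and -0.07 and +0.03 for other short and long genes. Across genes, which are not replicates and share the same libraries, the difference correlated with length at a Spearman rho of 0.42 over members and 0.24 over 11420 genes. With GC content rho was -0.31 over members and -0.46 over those genes. A rho between each library's deviation from the mean over libraries and gene length gave group medians of -0.14 in unstimulated WT and 0.13 in unstimulated Elk1-/-Elk4-/- libraries, then 0.15, 0.18 and -0.01 in the mutant at 0.5, 1 and 2 h. The part of length and GC content was not tested.

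**Figure D4:**
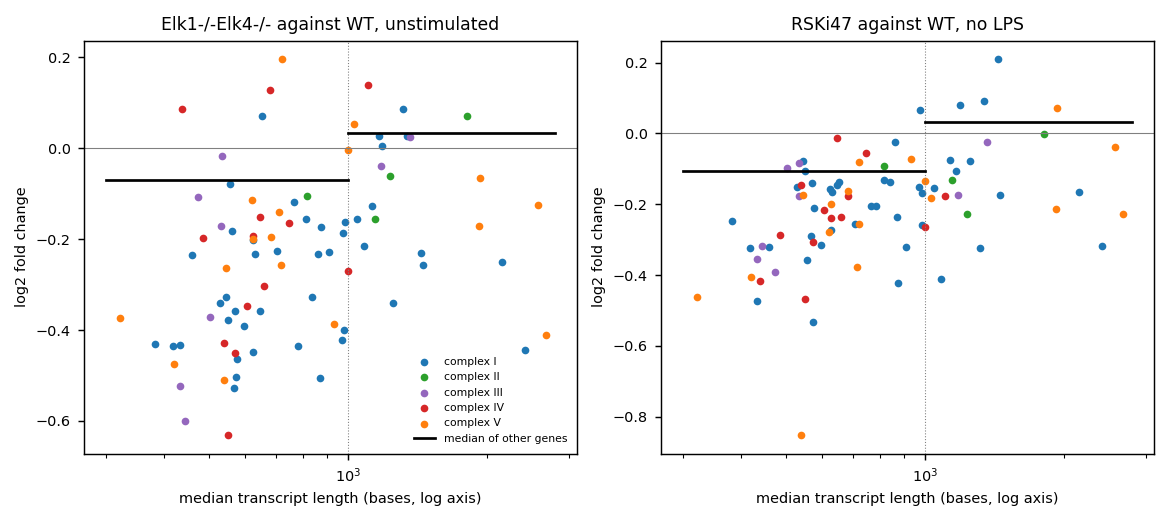
Log2 fold change against median transcript length (log axis, bases) for unstimulated Elk1-/-Elk4-/- (left) and RSKi47 (right) against WT, with members as points coloured by complex and horizontal lines at the medians of other genes under and over 1000 bases. Ndufs5 (-2.86 with RSKi47) is left out of the right panel. Short members had medians of -0.26 and -0.22, under those of other short genes at -0.07 and -0.11.

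LPS for 2 h raised members in Elk1-/-Elk4-/- cells. At 0.5 h 1 rose and 0 fell (4.96% of tested genes called, 3.22% higher and 1.74% lower), and at 1 h 2 rose and 3 fell (33.3%, 16.6% higher and 16.6% lower). At 0.5 h the call was Ndufaf3 (+0.23, adjusted p = 0.0035), which was also higher at 1 h (+0.18). The 5 calls at 1 h became 3, 2 and 1 without replicates 1, 2 and 3. Ndufaf3 lost its call without replicate 1 or 3, and Sdhd (-0.12) without replicate 2. After quantile normalization 1 was higher and 1 lower at 0.5 h (3% and 3.34% of tested genes) and 1 and 32 at 1 h (13.3% and 27.7%).

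At 2 h 51 rose and 2 fell, against 67.2% of tested genes called, 35.2% higher and 32.0% lower, with a median of +0.14 and 80 of 86 values above 0. The higher members were 12 of 13 complex IV, 12 of 15 complex V, 6 of 8 complex III and 19 of 37 complex I subunits, 1 of 4 complex II subunits and 1 assembly factor. Cox5a went from 10.73, 10.82, 10.70 and 10.81 to 11.11, 11.14, 11.35 and 11.20 (+0.43 ± 0.046). Atp5a1 went from 13.31, 13.27, 13.32 and 13.31 to 13.66, 13.61, 13.66 and 13.66 (+0.34 ± 0.032), and Atp5b from 13.52, 13.56, 13.54 and 13.54 to 13.87, 13.82, 13.89 and 13.84 (+0.31). In all 3 genes each stimulated library lay above each unstimulated one. Ndufa1, a small complex I subunit, rose by 0.32 ± 0.056. Atp5sl fell from 8.29, 8.30, 8.21 and 8.36 to 7.81, 7.80, 7.75 and 8.01 (-0.45 ± 0.085), and Atp5s by 0.44 ± 0.076. After quantile normalization 11 were higher and 16 lower (25.5% and 42.4% of tested genes), with Atp5a1 at -0.07. Other measures moved without overlap between 0 and 2 h. Cytosolic ribosomal protein genes lay at 12.63 to 12.66 before LPS and 12.77 to 12.97 after, and macrophage markers at 14.26 to 14.29 and 14.52 to 14.56. The dendritic cell list lay at 3.56 to 3.63 and 4.18 to 4.26, and the neutrophil and precursor list at 4.33 to 4.76 and 4.86 to 5.05. The library rho with transcript length lay at 0.064 to 0.158 and -0.085 to 0.057. Their part was not tested.

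The 2-h response was larger in Elk1-/-Elk4-/- than in WT cells for 11 members and smaller for 0 (16.9% of tested genes differed, 8.17% upwards and 8.76% downwards). The median difference in response was +0.13, with 83 of 86 values above 0. The 11 were 7 subunits named for complex I (Ndufa4 among them), led by Ndufs7 (+0.25, adjusted p = 0.0428), Ndufb7 (+0.25, adjusted p = 0.0457) and Ndufa1 (+0.24, adjusted p = 0.0204), 1 of complex IV and 3 of complex V. This count moved with single replicates: it was 0 without mutant replicate 1, 7 without replicate 3, 4 without replicate 4 and 22 without replicate 2, and 6, 4 and 1 without WT replicates 4, 5 and 6. Cytosolic ribosomal protein genes also had a larger response in 16 of 79 cases and a smaller one in 0. At 1 h 0 members differed between these genotypes (1.35% of tested genes did, 0.404% upwards and 0.942% downwards, and 1 member had an unadjusted p under 0.05).

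In Nfkb1 SSAA/SSAA cells members differed from WT in both directions. Unstimulated, 9 were higher and 14 lower (32.0% of tested genes called, 16.9% higher and 15.1% lower), and at 0.5 h 8 were higher and 15 lower (32.3%, with 16.7% and 15.6%). At 1 h 24 were higher and 6 lower (42.5%, with 20.5% and 21.9%), but without the library that stood apart, replicate 2, 16 were higher and 19 lower (19.1% and 20.7% of tested genes), and the median went from +0.04 to -0.02. By complex the unstimulated calls were 2 higher and 5 lower subunits of complex I, 3 and 3 of complex IV, 1 and 2 of complex V, 2 and 0 of complex III, 1 and 0 of complex II, and 4 lower assembly factors. After quantile normalization 5 were higher and 21 lower (16.1% and 17.8% of tested genes).

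Cox6a2, the muscle form of a complex IV subunit and among the least abundant members, was the member with the largest difference. Before LPS it lay at 5.53, 5.77 and 6.01 (lowest, median, highest of 6) in Nfkb1 SSAA/SSAA cells and at 4.74, 4.87 and 5.12 in WT. After 0.5 h the values were 5.14, 5.71 and 5.98 against 4.68, 4.73 and 4.85, and after 1 h 5.53, 5.81 and 6.25 against 4.58, 4.71 and 4.98. The groups did not overlap at any of the 3 times, and the differences were +0.91 ± 0.098, +0.90 ± 0.098 and +1.06 ± 0.098 (adjusted p = 7.7e-13, 1.1e-12 and 3.1e-16). The last was the only member difference over 2-fold in these cells. Cox6a2 was not called in any comparison of Map3k8 D270A/D270A, Elk1-/-Elk4-/- or RSKi47 cells with WT.

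Ndufaf7 was lower in Nfkb1 SSAA/SSAA cells at all 3 times, by 0.38 ± 0.046, 0.36 and 0.28. Unstimulated, Ndufa10, an accessory subunit of complex I, was higher by 0.18 and Uqcrc2, a core protein of complex III, by 0.10, while Atp5e and Atp5j2 were lower by 0.25 and 0.21. Cox7a2l was higher at 0.5 h (+0.19) and 1 h (+0.29). The markers of neutrophils and precursors had 1 of 6 higher (median +0.35), and cytosolic ribosomal protein genes 11 higher and 4 lower before LPS and 38 higher and 2 lower at 1 h, or 24 and 8 without replicate 2, a count added after seeing the data. The mean of that library over those genes was 13.38, where the other 5 libraries of its group lay at 12.78 to 12.91. Its library rho with transcript length was -0.48, and -0.14 to -0.0076 in the others. The part of these measures was not tested.

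LPS for 0.5 h lowered 19 members and raised 0 in these cells (14.6% of tested genes called, 8.55% higher and 6.07% lower), with a median of -0.10. Atp5k, the e subunit of the ATP synthase, fell by 0.23, Ndufa2 by 0.17 and Ndufc1 by 0.17. Cytosolic ribosomal protein genes lay at 12.80 to 12.91 before LPS and 12.70 to 12.82 after 0.5 h, and macrophage markers at 14.18 to 14.45 and 14.35 to 14.55. The library rho with transcript length lay at -0.214 to -0.058 and -0.017 to 0.053. Their part was not tested. The count of members called was 8, 8, 4 and 7 without replicates 1, 4, 5 and 6. Ndufc1 lost its call without replicate 1, 3, 4, 5 or 6 and Ndufa2 without 1 or 4. With the replicate block the count was 37. The share of all tested genes called under the block is not given for these cells. In WT that share rose from 11.6% to 21.9% at 0.5 h, so larger counts under the block cannot be read as particular to the members. At 1 h 10 members were higher and 1 lower (44.4% called, 22.5% higher and 21.9% lower), led by Ndufaf3 (+0.29) and Uqcrfs1 (+0.19), with 21 called under the block and 17 without replicate 5. Without replicate 2 at 1 h, 5 were higher and 10 lower (22.6% and 22.4% of tested genes), and after quantile normalization 5 and 11 (18.6% and 30.4%). The 1-h response differed from that of WT for 0 members by limma (6.07% of tested genes did, 1.77% upwards and 4.30% downwards, 19 members had an unadjusted p under 0.05, and 5 were called under the block). 1 was called without replicate 3 and 1 without replicate 6.

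**Figure D5:**
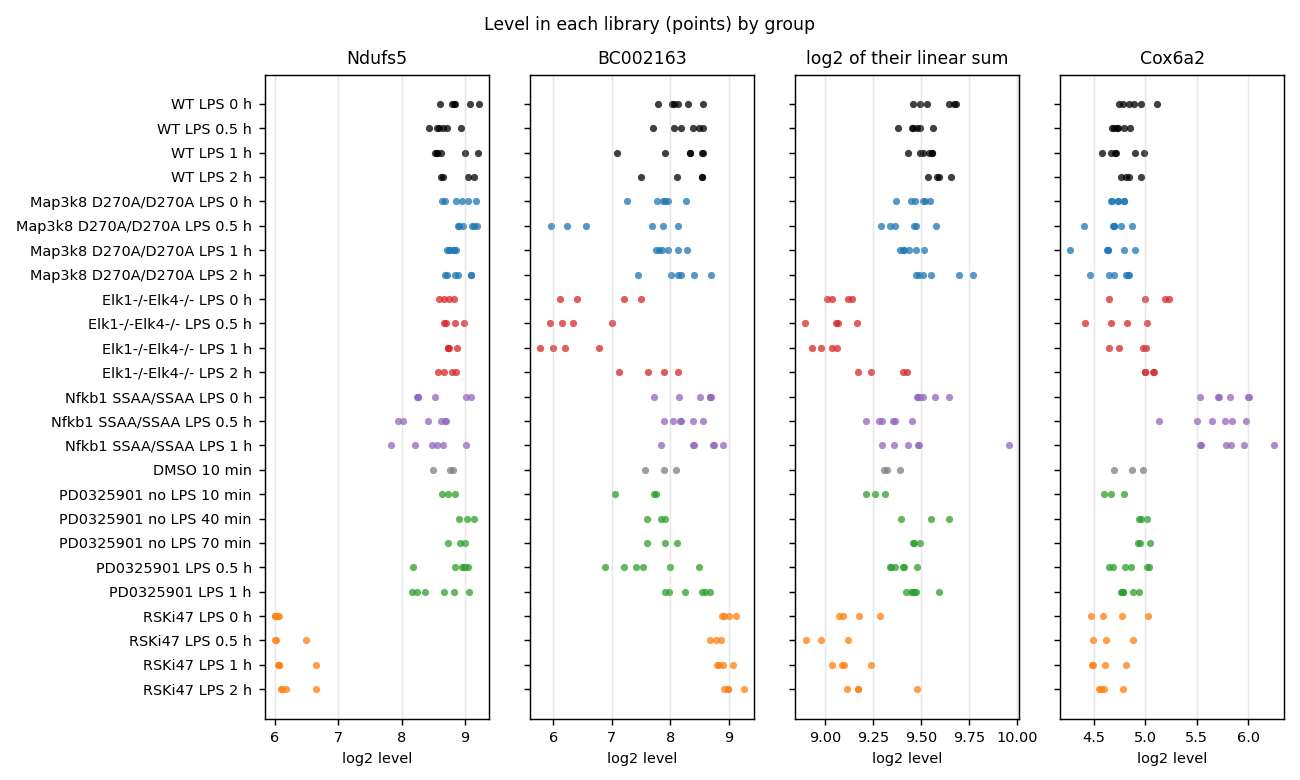
Log2 normalised values per library of Ndufs5, its processed pseudogene BC002163, the log2 of their linear sum, and Cox6a2, by group. RSKi47 libraries lie at 6.00 to 6.66 for Ndufs5, apart from all others at 7.83 to 9.22, and Nfkb1 SSAA/SSAA libraries lie above WT for Cox6a2.

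In RSKi47-treated cells most members were lower than in WT up to 1 h of LPS, and 41 of 86 at 2 h. Before LPS 2 were higher and 64 lower (53.0% of tested genes called, 26.8% higher and 26.3% lower), with a median of -0.18. At 0.5 h 1 was higher and 56 lower (48.2%, with 23.7% and 24.5%), at 1 h 2 and 50 (52.8%, with 26.5% and 26.3%) and at 2 h 4 and 41 (52.1%, with 27.5% and 24.6%). Groups did not overlap for 51, 54, 32 and 30 of the lower members, and for 18.4%, 19.7%, 15.9% and 18.1% of all tested genes in that direction. Before LPS the lower members were 27 of 37 complex I subunits, 6 of 7 assembly factors, 2 of 4 in complex II, 6 of 8 in complex III, 10 of 13 in complex IV and 13 of 15 in complex V. No libraries with DMSO and LPS were among the samples, so inhibitor and experiment cannot be told apart.

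Ndufs5, an iron-sulfur fraction subunit of complex I, stood out. It lay at 8.61, 8.83 and 9.22 in unstimulated WT cells and at 6.00, 6.01, 6.04 and 6.07 with RSKi47. All 15 RSKi47 libraries lay between 6.00 and 6.66 and the other 104 libraries between 7.83 and 9.22. The differences at the 4 times were -2.86 ± 0.157, -2.48 ± 0.173, -2.53 ± 0.157 and -2.60 ± 0.173 (adjusted p = 1.09e-29 at 0 h). This was the only member past 2-fold. Ndufs5 shares 21.7% of its 50-base words with the processed pseudogene BC002163 (GRCm38 chr16:42955631-42955949, plus strand), and lies itself at chr4:123712710-123718202 on the minus strand, so reads can be divided between the pair by the counting method.

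BC002163 moved the other way, by +0.84, +0.55, +0.77 and +0.87 at the 4 times. The linear sum of the pair differed by -0.42, -0.47, -0.40 and -0.36 on the log2 scale, beside a median over the 86 members of -0.18, -0.20, -0.16 and -0.12. Ndufs5 made up 10.7 to 18.4% of the sum in RSKi47 libraries and 34.7 to 90.1% elsewhere. This check was chosen after the values were seen, and a sum on this scale is approximate. Of the 86 members 39 share any 50-base word with another gene, 13 share over 20% and 1, Atp5l, over 50% (68.5%).

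Atp5j2 was the next most lowered member. It lay at 10.64, 10.81 and 10.87 in unstimulated WT and at 9.88, 9.89, 9.95 and 9.98 with RSKi47, and differed by -0.85 ± 0.056, -0.84 ± 0.062, -0.76 ± 0.056 and -0.79 ± 0.062 at the 4 times. Ndufa2 lay at 10.66, 10.76 and 10.80 in WT and at 10.23, 10.18, 10.22 and 10.25 with the inhibitor (-0.53 ± 0.062). Neither gene's groups overlapped. The muscle form Cox7a1 lay at 4.97, 5.19 and 5.34 in WT and at 4.70, 4.75, 4.88 and 4.63 (-0.42), and differed by -0.64 ± 0.105 at 2 h. Ndufaf6 (-0.41), Ndufaf2 (-0.36) and Ndufaf7 (-0.32) were lower assembly factors, and Atp5b was lower by 0.21.

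Ndufv1, which binds NADH and FMN in complex I, was higher at each time. It lay at 9.73, 9.81 and 9.86 in WT and at 9.93, 9.97, 10.01 and 10.12 with RSKi47 before LPS, above all WT libraries (+0.21 ± 0.039), and at +0.16, +0.17 and +0.17 later. At 2 h Ndufa9 was also higher (+0.11, adjusted p = 0.0153), a call lost without WT replicate 6 or RSKi47 replicate 4. Sdha (0.00), Cox5a (-0.01), Uqcrfs1 (-0.02), Atp5a1 (-0.04) and Cox4i1 (-0.05) were not called before LPS.

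Here too other lists moved with the members. Cytosolic ribosomal protein genes were lower in 74, 71, 68 and 64 of 79 cases at the 4 times, with a median of -0.26 before LPS. The neutrophil and precursor markers were higher in 5 of 6 cases (median +0.82), with the list at 2.84 to 3.04 against 2.23 to 2.62 in WT. Of the stromal and endothelial markers, Col1a1 was higher by 3.06 and Col1a2 by 2.30, while Col3a1, Dcn, Lum and Cdh5 were below the filter in every library. The list lay at 1.90 to 3.02 with RSKi47 and 1.31 to 1.49 in WT. The dendritic cell list, with 3 of 6 markers tested, lay at 3.84 to 4.04 against 3.50 to 3.79 in WT, with 2 of the 3 higher. The lymphocyte list lay at 1.42 to 1.48 against 1.52 to 1.59, with both tested markers lower. Replicate 4 stood apart in the stromal and endothelial list before LPS (3.02, where the others lay at 1.90 to 2.06), in the macrophage markers (14.16 against 14.32 to 14.40) and in the member mean (9.87 against 9.77 to 9.80). It also had the lowest macrophage markers and the highest member mean at 1 and 2 h. Without it 66, 56 and 48 members were lower at 0, 1 and 2 h. Short members had a median of -0.22 with 48 of 61 lower, long members -0.15 with 16 of 25 lower, and other short and long genes -0.11 and +0.03. The rho with length was 0.45 over members and 0.36 over all genes with a length, and group medians of the library rho were 0.24, 0.33, 0.26 and 0.13 at the 4 times. The part of these measures was not tested.

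LPS in the presence of RSKi47 raised 1 member and lowered 2 at 1 h (29.0% of tested genes called, 15.0% higher and 14.0% lower). At 2 h it raised 26 and lowered 3 (62.2%, with 32.5% and 29.7%), with a median of +0.07. Uqcrfs1 (+0.36 ± 0.041), Cox5a (+0.29) and Atp5b (+0.22) rose at 2 h, and Atp5sl (-0.40) and Atp5s (-0.34) fell. After quantile normalization 0 were higher and 9 lower at 1 h (11.8% and 23.4% of tested genes) and 4 and 20 at 2 h (23.9% and 39.8%), where Atp5b stood at -0.11. The 1-h response differed from WT for 0 members (5.54% of tested genes did, 2.26% upwards and 3.27% downwards, and 4 members had an unadjusted p under 0.05), and for 1 without WT replicate 9. Between 0 and 2 h of LPS with RSKi47 other measures moved without overlap. The dendritic cell list lay at 3.84 to 4.04 before and 4.32 to 4.51 after, and the neutrophil and precursor list at 2.84 to 3.04 and 3.18 to 3.52. Cytosolic ribosomal protein genes lay at 12.51 to 12.56 and 12.62 to 12.67, and the library rho with transcript length at 0.187 to 0.277 and 0.059 to 0.156. Their part was not tested.

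PD0325901 with LPS was compared with WT given LPS for the same time. At 0.5 h 19 members were higher and 2 lower (29.4% of tested genes called, 14.5% higher and 15.0% lower), and at 1 h 20 were higher and 4 lower (35.7%, with 16.4% and 19.3%), with a median of +0.03 each time. The closest of the 6 PD0325901 libraries were numbers 3 and 6 at 0.5 h and 2 and 5 at 1 h. The labels do not say whether such pairs share a culture, so the 6 may not be independent. With these libraries averaged in pairs (1 with 4, 2 with 5 and 3 with 6) the count at 0.5 h was 12. At 1 h the higher members were 6 each of complexes I and V, 3 of complex III, 2 each of complexes II and IV and 1 assembly factor. Sdha lay at 12.20, 12.22 and 12.25 (lowest, median, highest of 6) in WT at 1 h and at 12.36, 12.42 and 12.47 with PD0325901, without overlap (+0.19 ± 0.021). Uqcrfs1 was higher by 0.24 ± 0.034 and 0.23 at the 2 times, Ndufa10 by 0.21 and 0.17, and Cox5a by 0.18 at 0.5 h. Ndufc2, a complex I membrane subunit, was lower by 0.17 at 1 h. The neutrophil and precursor markers were higher in 6 of 6 cases at 1 h (median +1.35), and their part was not tested.

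The DMSO libraries of that experiment differed from untreated WT as well. In them 6 members were higher and 25 lower (23.6% of tested genes called, 12.5% higher and 11.1% lower), with a median of -0.09. Ndufa10 (+0.19), Sdha (+0.15), Atp5a1 (+0.15) and Uqcrfs1 (+0.15) were higher, and Uqcr10 (-0.36), Ndufc2 (-0.34) and Atp5e (-0.33) were lower. The count was 20 without DMSO replicate 2 and 17 without replicate 3. The neutrophil and precursor markers were also higher there in 6 of 6 cases (median +1.09), and cytosolic ribosomal protein genes were lower in 26 of 79.

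Within that experiment few members were called with PD0325901 alone. DMSO was sampled at 10 min only, so at 40 and 70 min the inhibitor and elapsed time cannot be told apart. Between 10 min of PD0325901 and 10 min of DMSO, limma called 0 members and 0.00% of 11971 tested genes, with 245 genes and 1 member at an unadjusted p under 0.05. That member was Cox8a (-0.14 ± 0.070, unadjusted p = 0.0439). Between 40 and 10 min of the inhibitor 2 members were higher (3.58% of tested genes called, 1.32% higher and 2.26% lower), among them Cox8a (+0.32 ± 0.070, adjusted p = 0.00145). Cox8a lay at 11.02, 10.89 and 10.93 at 10 min, 11.22, 11.41 and 11.17 at 40 min and 11.25, 11.22 and 11.29 at 70 min, beside 11.07, 11.12 and 11.08 with DMSO. The 10-min libraries lay under the rest. The neutrophil and precursor list lay at 2.66 to 3.09 at 10 min, 3.31 to 3.54 at 40 min and 3.28 to 3.37 at 70 min, beside 2.81 to 3.25 with DMSO. Of its 6 tested markers 3 were higher at 40 min and 2 at 70 min than at 10 min, and their part was not tested. Between 70 and 10 min Cox8a was higher (+0.31 ± 0.070, adjusted p = 0.00161) and Sdha lower (-0.09 ± 0.030, adjusted p = 0.0486), with 6.09% of tested genes called, 2.62% higher and 3.47% lower. All of these rested on 3 libraries a group: leaving out any of replicates 1 to 3 left 0 to 1 members called, Cox8a lost its call without replicate 2 at 40 min and without replicate 3 at 70 min, and Sdha lost its call each time. After median centring 2 members were higher and 0 lower at 70 min, and Sdha was not called (adjusted p = 0.22).

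The LPS response at 1 h with PD0325901 was taken from the libraries with 10 min of the inhibitor and no LPS. The LPS libraries had the inhibitor for 1 h longer, so LPS and time with the inhibitor cannot be told apart. The difference from WT with the 70-min libraries as the start was not tested. With the 10-min libraries as the start, 30 members differed from WT at an unadjusted p under 0.05. The response was called larger than in WT for 2 members (3.64% of tested genes differed, 1.01% upwards and 2.63% downwards). These were Cox7c, a small complex IV subunit (+0.29 ± 0.084, adjusted p = 0.0276), and Ndufc2 (+0.27 ± 0.074, adjusted p = 0.0171). The count was 0 without PD0325901 replicate 2 or 3, 1 without WT replicate 4 or 6 and 6 without WT replicate 7. It was 0 when the 6 LPS libraries were averaged in pairs, 5 after quantile normalization and 16 in a fit on the groups compared alone.

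The other genes of the pathway, a list of 50 tested further subunits, assembly factors and carriers that the symbol rule does not match, are given beside them, with no test of the difference between the lists. In WT cells 0 rose and 26 fell at 1 h (median -0.12, where 46.8% of tested genes were called), and 9 rose and 26 fell at 2 h (median -0.12, with 71.5% called). After quantile normalization 1 rose and 24 fell at 1 h and 6 and 24 at 2 h. Cycs, which encodes cytochrome c, rose by 0.37 at 2 h, and Cyc1, the haem-bearing subunit of complex III, by 0.17, but neither was called after quantile normalization (adjusted p = 0.265 and 0.516), which put Cyc1 at -0.04. In Map3k8 D270A/D270A cells 11 rose and 21 fell at 2 h, and in Elk1-/-Elk4-/- cells 15 and 15. Against WT, 3 were higher and 23 lower in unstimulated Elk1-/-Elk4-/- cells (median -0.11) and 14 higher and 10 lower at 2 h. With RSKi47 before LPS 4 were higher and 31 lower (median -0.21). Cyc1 was lower by 0.43 in unstimulated Elk1-/-Elk4-/- cells. Among 14 enzymes of the TCA cycle, 6 rose and 0 fell after 2 h of LPS in WT cells (2 and 8 after quantile normalization), beside 34.7% and 36.8% of tested genes. In unstimulated Elk1-/-Elk4-/- cells 4 were higher and 4 lower (1 and 6 after quantile normalization), beside 27.2% and 24.6%. With PD0325901 at 1 h of LPS 11 were higher and 0 lower, beside 16.4% and 19.3%. The DMSO libraries of that experiment also differed from WT, so inhibitor and experiment cannot be told apart there.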

How the data were processed

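RNA-seq was done on mouse BMDM libraries in 25 groups. Per the submitters' processing notes, the authors aligned reads with STAR 2.5.1b, estimated gene counts with RSEM 1.2.29 (mm10) and normalised them with DESeq2 1.10.1. The study's methods name other versions of STAR and RSEM. The deposited table holds log2 normalised values for 18098 genes, from -2.40 to 19.81, with 1 value of 57.73 (Fosb, RSKi47 replicate 1 at 1 h) treated here as missing. Read counts were not analysed here, and the study's methods give a typical sequencing yield only, which leaves the depth of each library unknown. Neither a count test nor a pseudocount applied.

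Log2 values were fitted with limma 3.58.1 (R 4.3.3, no intensity trend) and Benjamini-Hochberg adjustment over all tested genes, with a call at an adjusted p below 0.05. Of the models, the first used 62 libraries (WT and the Map3k8 and Elk1/Elk4 mutants) and the 11884 genes that reached 10 on the linear scale in 4 or more libraries. The second used every library and 11971 genes (3 or more libraries) and gave the comparisons of Nfkb1 SSAA/SSAA, PD0325901, DMSO and RSKi47. Fold changes are differences of mean log2 values with their SE. The scripts were tested on simulated data. 0 columns belonged to other samples. The values of 1 member are not reported here, though counts and means include it.

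WT replicates are numbered 4 to 9 in the labels. Deviations from group means of same-numbered libraries correlated above 0.1 in all 30 WT pairs (0.16 to 0.79) and all 18 Nfkb1 SSAA/SSAA pairs (0.14 to 0.67). Differently numbered pairs did so in 48 of 150 WT cases (range -0.52 to 0.57) and 14 of 90 Nfkb1 SSAA/SSAA cases (range -0.53 to 0.41). The replicate block treats equal numbers as paired, which no label states. Named members were, per comparison, up to 3 higher and 3 lower with the largest called change and no overlap between groups, or else the 2 with the smallest p, plus set subunits, assembly factors, tissue-restricted forms, relatives and regulators whatever their values. The members and lists were chosen with earlier results of these data known. Promoters came from RefSeq GRCm38.p6, and lengths are medians over annotated transcripts. Alternatives were another filter, scaling, trend, sample set, replicate block and leaving out each replicate.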

Additional observations from a re-analysis of the deposited data

Results flagged for a closer look

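In groups of 4 to 10 libraries, the gap of the highest or lowest library to its neighbour exceeded Dixon's critical value for 18 of 180 pairs of a group and a measure (9 measures), where chance gives about 1 in 20. Of these, 5 concerned Nfkb1 SSAA/SSAA replicate 2 at 1 h: its member mean was 10.37 (others 9.93 to 10.00), Cox8a 11.62, Uqcr11 10.46, Atp5j2 10.96 and Atp5b 13.96. For Atp5a1 the libraries apart were WT replicate 9 at 0.5 h (13.45), Map3k8 D270A/D270A replicate 4 at 0.5 h (13.50) and Elk1-/-Elk4-/- replicate 2 at 2 h (13.61). For Atp5b they were Map3k8 D270A/D270A replicate 4 at 0.5 h (13.86) and 1 h (13.94), Elk1-/-Elk4-/- replicate 3 at 1 h (13.56) and RSKi47 replicate 4 without LPS (13.56). For Uqcr11 they were WT replicate 8 at 1 h (9.76) and RSKi47 replicate 4 at 2 h (9.88). For Ndufs5 they were Elk1-/-Elk4-/- replicate 2 at 1 h (8.88), PD0325901 replicate 1 at 0.5 h of LPS (8.18), RSKi47 replicate 2 at 1 h (6.66, others 6.06 to 6.07) and RSKi47 replicate 4 at 2 h (6.65).

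The LPS response differed between genotypes or inhibitors by the interaction test in limma for the 13 pairs of member and comparison given here. Between Map3k8 D270A/D270A and WT at 2 h it was Ndufaf4 (-0.33, adjusted p = 0.00503). Between Elk1-/-Elk4-/- and WT at 2 h all 11 called members were larger in the mutant, among them Ndufs7 (0.25, adjusted p = 0.0428), Ndufb7 (0.25, adjusted p = 0.0457), Ndufa1 (0.24, adjusted p = 0.0204), Ndufc2 (0.24, adjusted p = 0.0219), Cox7a2 (0.23, adjusted p = 0.0202), Ndufa4 (0.21, adjusted p = 0.0211), Ndufs3 (0.18, adjusted p = 0.0227), Atp5g2 (0.18, adjusted p = 0.0295), Atp5o (0.16, adjusted p = 0.023) and Atp5f1 (0.15, adjusted p = 0.0462). Without mutant replicate 1, 0 of the members were called. Between PD0325901 and WT at 1 h they were Cox7c (0.29, adjusted p = 0.0276) and Ndufc2 (0.27, adjusted p = 0.0171), and 0 were called without PD0325901 replicate 2. The PD0325901 response started from 10 min of the inhibitor without LPS, so LPS and the longer time with the inhibitor cannot be told apart.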

How the results depend on the processing

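The counts of members that differed from WT in Elk1-/-Elk4-/- and RSKi47 cells stayed within 1.5 times under every setting run (no filter, a filter at a linear value of 100, a limma trend, median centring, quantile normalization, only the groups compared, a replicate block and leaving out each replicate). The other counts moved as follows, and the cause was not tested. Counts of members called, by setting, were: without a filter, 6 for WT LPS 0.5 h (11 as reported) and 11 for Nfkb1 SSAA/SSAA LPS 0.5 h (19). With median centring they were 20 for WT LPS 0.5 h, 1 and 4 for Map3k8 D270A/D270A against WT at 0 and 2 h (4 and 7), 3 for the Elk1-/-Elk4-/- difference in 2-h response (11) and 18 for RSKi47 LPS 2 h (29). With quantile normalization they were 46, 59 and 58 for WT LPS 0.5, 1 and 2 h (11, 11, 26), 49 for Map3k8 LPS 1 h (10), 2, 33 and 27 for Elk1-/-Elk4-/- LPS 0.5, 1 and 2 h (1, 5, 53), 2 for Map3k8 against WT at 1 h (6), 42 for Nfkb1 LPS 0.5 h, 1 for PD0325901 70 against 10 min (2), 9 for RSKi47 LPS 1 h (3) and 5 for the PD0325901 difference in response (2). With only the groups compared they were 17 for WT LPS 0.5 h, 3 for Elk1-/-Elk4-/- LPS 1 h, 1, 0 and 0 for Map3k8 against WT at 0, 0.5 and 2 h, 7 for the Elk1-/-Elk4-/- difference in response, 10 for Nfkb1 against WT at 1 h (30), 32 and 5 for Nfkb1 LPS 0.5 and 1 h (19, 11) and 16 for the PD0325901 difference. Averaging PD0325901 pairs gave 12 at 0.5 h (21) and 0 for its difference in response.

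Within WT 4 to 6 and Map3k8 1 to 3, counts against WT were 10, 19 and 32 at 0, 1 and 2 h and 1 and 6 for the responses, and within WT 7 to 9 and Map3k8 4 to 6 they were 0, with 1 WT library at 2 h. For the LPS responses (added after seeing the data), the first set gave 36 and 30 for WT at 0.5 and 1 h and 1 and 38 for Map3k8, and the second 2 and 2 for WT and 1, 4 and 59 for Map3k8 at 0.5, 1 and 2 h. The sum of Ndufs5 and BC002163 turned the Map3k8 difference at 0.5 h to -0.0545. Leaving out single replicates gave 1 to 5, and 7 to 13 for WT LPS 0.5 and 1 h, 5 to 10 for Map3k8 LPS 1 h, 1 to 5 for Elk1-/-Elk4-/- LPS 1 h, 0 to 6, 0 to 2, 1 to 7 and 2 to 11 for Map3k8 against WT, 1 to 2 and 0 to 22 for the 2-h differences in response of Map3k8 and Elk1-/-Elk4-/-, 4 to 26 and 10 to 17 for Nfkb1 LPS, 17 to 32 for DMSO, 0 to 1 for each PD0325901 time, 0 to 1, 0 to 6 and 0 to 1 for the 1-h differences of Nfkb1, PD0325901 and RSKi47.

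With the replicate number as a block, calls were 38 for WT LPS 0.5 h, 37 and 21 for Nfkb1 LPS 0.5 and 1 h and 5 for the Nfkb1 difference in response. In WT at 0.5 h the share of all tested genes called rose as well, from 11.6% to 21.9%. Ndufs1 and Sdha in WT at 2 h passed under the block (adjusted p = 0.038 and 0.0061). In the other groups not every same-numbered pair correlated above 0.1 (34 of 36 Map3k8, 20 of 24 Elk1-/-Elk4-/-, 20 of 21 RSKi47 and 14 of 33 PD0325901 pairs did). For them the block gave 2 and 11 for Elk1-/-Elk4-/- LPS 0.5 and 1 h, 23, 12 and 22 for Map3k8 against WT at 0, 0.5 and 1 h, 1 and 6 for its responses, 30 for the Elk1-/-Elk4-/- difference, 4 for PD0325901 70 min, 8 for its difference and 1 for that of RSKi47.

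Values that turned sign under quantile normalization were, for WT LPS 2 h, Atp5a1 -0.0762, Atp5b -0.13, Ndufs1 -0.19, Ndufv1 -0.0474, Sdha -0.36, Uqcrc1 -0.19 and Cox4i1 -0.30, with Atp5a1 at -0.0198 in Map3k8 and -0.069 in Elk1-/-Elk4-/- cells at 2 h, Atp5b at -0.10 in Nfkb1 cells at 1 h and -0.11 with RSKi47 at 2 h, and Atp5a1 at 0.00498 for RSKi47 against WT. Under the block Uqcrfs1 in Elk1-/-Elk4-/- cells stood at -0.000644 and Sdha with RSKi47 at 0.0283. With RSKi47 before LPS, leaving out single replicates gave Sdha -0.0212 to 0.0200 and Cox5a -0.0458 to 0.00761. The largest shift of the all-gene median was 0.033 with median centring and 0.098 with quantile normalization. Pseudocounts and count models were not run, because the values are log2 and not counts. The depth of each library is unknown, so it sets no stated limit.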

Other observations

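Regulators of mitochondrial gene expression moved in both directions after LPS in WT cells. Of 12 tested, 7 were higher and 5 lower at 2 h, where 34.7% of tested genes were higher and 36.8% lower. Gabpb1 and Gabpa, subunits of the ETS factor NRF-2 that is known to act on genes of oxidative phosphorylation, were higher by 1.01 and 0.34 at 1 h and 0.92 and 0.50 at 2 h, and their partner Gabpb2 was at -0.04 and then -0.65. The coactivators Ppargc1b and Pprc1 were higher by 1.66 and 0.95 at 2 h. Tfam, Polrmt and Tfb2m, which act in mitochondrial transcription, were lower at 2 h by 0.28, 0.50 and 0.21, and Tfb1m, a methyltransferase of mitochondrial ribosomal RNA, by 0.44. These directions at 2 h were the same after median centring and quantile normalization. Pprc1 was lower than in WT at 2 h in Map3k8 D270A/D270A cells (-0.38) and in Elk1-/-Elk4-/- cells (-0.64).

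AA467197, a relative of the complex IV subunit Ndufa4 that is known to rise in inflammation, lay at 5.13, 5.34 and 5.69 (lowest, median, highest of 6) in unstimulated WT libraries and at 8.69, 8.44, 8.65 and 7.95 after 2 h of LPS. It rose by 3.03 ± 0.170 (limma adjusted p = 8.1e-23), with no overlap, while Ndufa4 lay at 10.58, 10.68 and 10.74 before and 10.65, 10.55, 10.59 and 10.78 after (-0.03, adjusted p = 0.49; -0.26 after quantile normalization). AA467197 was lower than in WT by 0.58 in Map3k8 D270A/D270A cells at 2 h.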
